A study of Mus musculus with 16 samples.

Results

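Genes of hepatic stellate cells and liver fibrosis were followed across the 4 groups of the study: Col1a1, Col1a2, Col3a1, Col4a1, Acta2, Timp1, Tgfb1, Des, Lrat and Dcn. They were chosen by symbol, and each matched 1 Ensembl gene of the table, which gives 10 members of 55487 genes. The data are liver RNA-seq libraries of 16 male C57BL6/J mice, 1 for each animal, in 4 groups of 4 called vehicle SP, G108 SP, vehicle HP and G108 HP. According to the sample records, lean mice aged 10 weeks first ate a diet with 60% of its energy from fat for 8 weeks. All then ate high-fat food that held standard protein (SP) or high protein (HP) and received vehicle or G108, a long-acting glucagon analogue, under the skin at 2.5 nmol/kg daily for 22 days. The paper gives a younger starting age and a shorter high-fat phase than the records. According to the paper, the switch to SP or HP food came before the start of the G108 treatments. All mice were culled after a 4 h fast, on day 25 in the records and on day 22 in the paper. No group ate ordinary chow and none had induced fibrosis, so every level below is that of an obese mouse on a high-fat diet.

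Hepatic stellate cells lie between the sinusoidal endothelium and the hepatocytes and store vitamin A as retinyl esters, which the enzyme Lrat makes. After liver injury they can turn into contractile, matrix-producing myofibroblasts that express smooth muscle actin (Acta2), fibrillar collagens (Col1a1, Col1a2, Col3a1) and the protease inhibitor Timp1, and Tgfb1 is a main signal for that change. Desmin (Des) and the collagen-binding proteoglycan decorin (Dcn) mark stellate cells of the mouse liver also at rest, and Col4a1 is a chain of basement membrane collagen.

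In GRCm38, Col1a1 lies on chromosome 11 at 94936224 to 94953042, Col1a2 on chromosome 6 at 4504814 to 4541544, Col3a1 on chromosome 1 at 45311538 to 45349706 and Dcn on chromosome 10 at 97479609 to 97518143, all on the plus strand. Des (chromosome 1, 75360329 to 75368579), Tgfb1 (chromosome 7, 25687002 to 25705077) and Timp1 (chromosome X, 20870166 to 20874735) are on the plus strand as well. Col4a1 (chromosome 8, 11198423 to 11312826), Acta2 (chromosome 19, 34241090 to 34255590) and Lrat (chromosome 3, 82892579 to 82903973) are on the minus strand. All are protein-coding, and each value covers the exons of the whole gene.

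RefSeq start sites on GRCm38.p6 were matched for 8 of the 10 members, and those of Col1a1 and Dcn were not analysed here. In windows from 250 bases before to 50 after the start, searched on both strands, the full cAMP response element TGACGTCA, the classical target of cAMP signalling downstream of the glucagon receptor, was in 0 of 8 members and in 1.79% of all 32851 windows. Its shorter form TGACG, which is contained in TGACGTCA, was in 2 of 8 members (Des and Timp1) and in 20.8% of all windows. The CCAAT box (CCAAT) was in 4 of 8 (Col1a2, Col4a1, Lrat and Timp1) against 37.4% of all windows, and the GC box (GGGCGG) was in 6 of 8 against 35.7%. The TATA box (TATAAA) was in 1 of 8 (Col3a1) against 13.6%. The CArG box of smooth muscle promoters, searched only as CC, 6 bases of A or T, and GG, was in 0 of 8 against 1.63%. Forms 1 base off, such as ccctatatgg and ccttgtttgg before the start of Acta2, were not counted. These matches describe letters and not bound sites. The RefSeq starts of Col1a2 and Acta2 lie inside the gene spans given above, as do the 150 bases before each. The 150 bases before the start are shown for Col1a2 (chr6:4505468-4505617, plus strand) and Lrat (chr3:82903975-82904124, minus strand), a matrix gene and a vitamin A gene that share a CCAAT box, given in capitals, each written 5′ to 3′ on the strand of its gene.
Col1a2: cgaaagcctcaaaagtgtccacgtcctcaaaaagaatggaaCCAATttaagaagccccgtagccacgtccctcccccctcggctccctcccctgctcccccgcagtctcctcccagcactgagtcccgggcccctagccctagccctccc
Lrat: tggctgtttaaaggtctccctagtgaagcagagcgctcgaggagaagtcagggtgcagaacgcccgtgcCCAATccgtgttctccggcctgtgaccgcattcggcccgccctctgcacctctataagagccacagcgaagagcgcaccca

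The deposited values are transcript abundances (TPM), which divide the reads of a gene by its exon length and bring every library to the same sum, so that a TPM is a share of its library. The recovered depth was 27.8 to 45.04 M assigned reads per library. Libraries differed in their composition: the factor that brings the median gene of a library to the common level (median-of-ratios scaling) was 0.681 to 0.964 in vehicle SP, 0.833 to 1.07 in vehicle HP, 1.17 to 1.54 in G108 SP and 0.839 to 1.24 in G108 HP. The median of 11839 genes with G108 relative to vehicle was accordingly at a log2 fold change of 0.60 in the SP groups and 0.09 in the HP groups, and at -0.01 and 0.00 after this scaling. Members are therefore described on both scales, as deposited and scaled, except for Timp1, which is given as reads and TPM. The libraries were hepatocyte-rich liver: the summed TPM of 6 hepatocyte markers was 19720 to 59280, that of 8 stellate cell markers 39.3 to 96.9, and that of 4 skeletal muscle markers at most 0.0764. The stellate cell markers include Lrat, Des and Dcn and were all detected. In whole liver, fewer stellate cells and less RNA per stellate cell cannot be told apart.

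The members were scarce in this tissue. Dcn was the most abundant with a mean of 9.83 TPM over the 16 mice and a mean of 1521 reads per library. Lrat (1.29 TPM), Tgfb1 (1.28), Col4a1 (1.25) and Col3a1 (1.04) followed, and the differences between them were smaller than the spread between mice. Below a mean of 1 TPM lay Des (0.873), Acta2 (0.461), Col1a2 (0.408), Col1a1 (0.397) and Timp1 (0.0490). Reads per library were 40 to 223 for Col1a1, 77 to 241 for Col1a2, 161 to 541 for Col3a1 and 5 to 66 for Acta2. Timp1 had 0 to 5 reads and was listed at 0 in 6 libraries. Timp1 was measured at the counting limit and Acta2 on few reads. Col1a2 had read counts near those of Tgfb1 (86 to 250) and Lrat (119 to 290) and a lower TPM over longer exons, 12426 bases against 5042 for Tgfb1 and 5351 for Lrat. Of the 10 members, 5 passed the filter of a mean of 1 TPM (Dcn, Lrat, Tgfb1, Col4a1 and Col3a1), and 9, all but Timp1, had a mean of at least 10 reads.

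**Figure D1:**
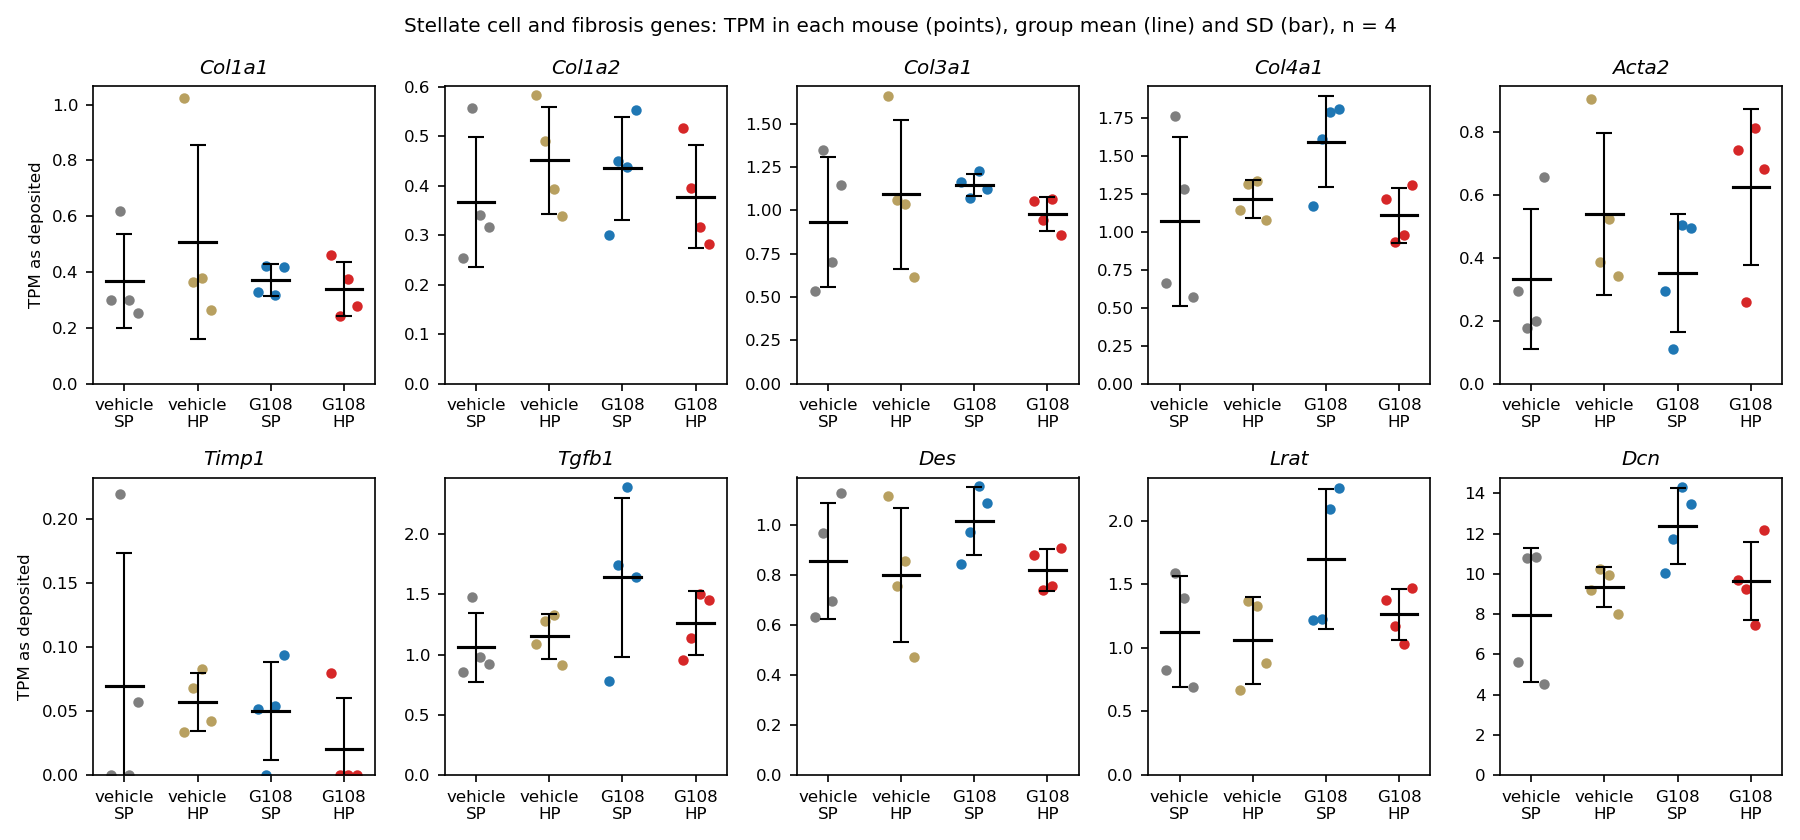
TPM of each member (y axis, 1 panel per gene, each from 0) in the 4 groups of 4 mice (x axis), with points for mice in the order of their numbers and lines and bars for mean and SD. Dcn reached 14.3 TPM in G108 SP mouse 3, Timp1 stayed at or below 0.220 TPM, and 1 vehicle HP mouse stood above the others of its group in Col1a1 with 1.02 TPM.

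The fibrillar collagens came first because they form the bulk of scar matrix. Col1a1, the alpha 1 chain of type I collagen, was at 0.299, 0.619, 0.298 and 0.255 TPM in the vehicle SP mice 1 to 4 and at 0.330, 0.423, 0.316 and 0.419 TPM in G108 SP. On the HP diet it was at 1.02, 0.364, 0.378 and 0.263 TPM with vehicle and at 0.460, 0.244, 0.376 and 0.277 TPM with G108. All groups overlapped as deposited, and the widest spread was in vehicle HP, where mouse 1 alone had 223 reads. After scaling, G108 SP mice (0.281, 0.320, 0.206 and 0.286) lay below all vehicle SP mice (0.433, 0.642, 0.335 and 0.374), a mean of 0.273 ± 0.0483 against 0.446 ± 0.137 (SD, n = 4).

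Col1a2, the partner chain of type I collagen, was at 0.253, 0.557, 0.341 and 0.316 TPM in vehicle SP and at 0.30, 0.451, 0.438 and 0.554 TPM in G108 SP. On HP it was at 0.584, 0.491, 0.393 and 0.339 TPM with vehicle and at 0.517, 0.396, 0.317 and 0.282 TPM with G108. No pair of groups was separate, and the group means ran from 0.367 ± 0.132 in vehicle SP to 0.452 ± 0.109 TPM in vehicle HP (SD, n = 4). After scaling the Col1a2 means were 0.448 ± 0.0964 in vehicle SP, 0.315 ± 0.0547 in G108 SP, 0.495 ± 0.141 in vehicle HP and 0.382 ± 0.116 in G108 HP (SD, n = 4), and the groups overlapped. Col3a1, which forms type III collagen, was at 0.535, 1.35, 0.701 and 1.15 TPM in vehicle SP, at 1.66, 1.06, 1.04 and 0.617 TPM in vehicle HP, at 1.16, 1.07, 1.23 and 1.12 TPM in G108 SP and at 1.05, 0.944, 1.06 and 0.857 TPM in G108 HP. G108 SP and G108 HP did not overlap, with the HP mice lower, and this was the only such case among the 9 members and 4 comparisons as deposited. Of all 16347 genes with at least 10 reads, 18.2% did not overlap in that comparison, against 49.6% for G108 on SP, 8.55% for G108 on HP and 1.69% for the diets with vehicle. After scaling the Col3a1 groups overlapped in that comparison, with means of 0.842 ± 0.102 in G108 SP and 0.997 ± 0.236 in G108 HP, beside 1.16 ± 0.455 in vehicle SP and 1.21 ± 0.555 in vehicle HP (SD, n = 4).

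Col4a1, the basement membrane chain, was at 0.663, 1.76, 1.28 and 0.573 TPM in vehicle SP and at 1.17, 1.61, 1.80 and 1.81 TPM in G108 SP, means of 1.07 ± 0.559 and 1.60 ± 0.298 TPM (SD, n = 4). The groups overlapped, with vehicle SP mouse 2 as high as the G108 mice. In the HP groups it was at 1.14, 1.32, 1.34 and 1.08 TPM with vehicle and at 1.22, 0.935, 0.981 and 1.31 TPM with G108. After scaling, the G108 HP mice (1.19, 0.990, 1.17 and 1.06) lay below the vehicle HP mice (1.37, 1.23, 1.47 and 1.24), and the SP groups overlapped.

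Dcn, which binds and spaces collagen fibrils, had the highest counts and so the smallest counting error of the members. It was at 5.62, 10.8, 10.8 and 4.52 TPM in vehicle SP, at 10.0, 11.7, 14.3 and 13.5 TPM in G108 SP, at 9.18, 10.3, 9.92 and 8.01 TPM in vehicle HP and at 9.70, 9.26, 7.44 and 12.2 TPM in G108 HP. The 2 lowest values belonged to vehicle SP mice 1 and 4, which also had the 2 lowest scaling factors of the study, 0.692 and 0.681. After scaling, Dcn was 9.53 ± 2.58 in vehicle SP, 8.98 ± 0.339 in G108 SP, 10.2 ± 0.923 in vehicle HP and 9.50 ± 0.449 in G108 HP (SD, n = 4), and the means differed by less than the spread of vehicle SP.

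Among the stellate cell markers, Lrat was at 0.830, 1.59, 1.40 and 0.691 TPM in vehicle SP, at 1.22, 1.23, 2.09 and 2.26 TPM in G108 SP, at 0.670, 1.37, 1.33 and 0.878 TPM in vehicle HP and at 1.38, 1.18, 1.03 and 1.47 TPM in G108 HP. The groups overlapped on both scales, and after scaling Lrat was within 1.01 to 1.65 in vehicle SP, 0.930 to 1.54 in G108 SP, 0.805 to 1.46 in vehicle HP and 1.19 to 1.35 in G108 HP. Des, the intermediate filament of stellate and muscle cells, was at 0.631, 0.968, 0.695 and 1.13 TPM in vehicle SP and at 0.846, 0.973, 1.16 and 1.09 TPM in G108 SP. The HP groups had 1.12, 0.757, 0.857 and 0.471 TPM with vehicle and 0.879, 0.741, 0.757 and 0.908 TPM with G108. As deposited all groups overlapped. After scaling, Des was within 0.722 to 0.752 in the G108 SP mice and within 0.780 to 1.66 in the vehicle SP mice, so these groups did not overlap.

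Acta2, the actin of activated stellate cells and of vessel walls, varied widely between mice. It was at 0.294, 0.178, 0.198 and 0.657 TPM in vehicle SP, at 0.906, 0.385, 0.522 and 0.342 TPM in vehicle HP, at 0.293, 0.111, 0.505 and 0.494 TPM in G108 SP and at 0.743, 0.260, 0.811 and 0.683 TPM in G108 HP. The lowest value rested on 5 reads and the highest on 66, and the groups overlapped in all 4 comparisons on both scales. After scaling the Acta2 means were 0.449 ± 0.360 in vehicle SP, 0.250 ± 0.117 in G108 SP, 0.603 ± 0.336 in vehicle HP and 0.630 ± 0.291 in G108 HP (SD, n = 4). Tgfb1, the cytokine, was at 0.859, 1.48, 0.977 and 0.924 TPM in vehicle SP, at 1.09, 1.28, 1.33 and 0.917 TPM in vehicle HP, at 0.785, 1.75, 2.39 and 1.65 TPM in G108 SP and at 0.957, 1.13, 1.51 and 1.45 TPM in G108 HP. Within G108 SP it spanned the lowest and the highest value of all 16 mice. After scaling the Tgfb1 means lay between 1.17 ± 0.376 in G108 SP and 1.31 ± 0.185 in vehicle SP (SD, n = 4), less apart than the spread within G108 SP. Timp1 had 0, 5, 0 and 2 reads in vehicle SP, 1, 2, 2 and 1 in vehicle HP, 1, 0, 1 and 2 in G108 SP and 2, 0, 0 and 0 in G108 HP. A difference in Timp1 was not detectable at this depth, and no fold is given.

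Scaled values that did not overlap were thus found for 2 of 9 members on SP (Col1a1 and Des, both lower with G108), where 8.80% of all genes with at least 10 reads did not overlap, and for 1 of 9 on HP (Col4a1, lower with G108), where 7.67% did not. For HP against SP the count was 0 of 9 with G108 (4.12% of all genes) and 0 of 9 with vehicle (2.11%).

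**Figure D2:**
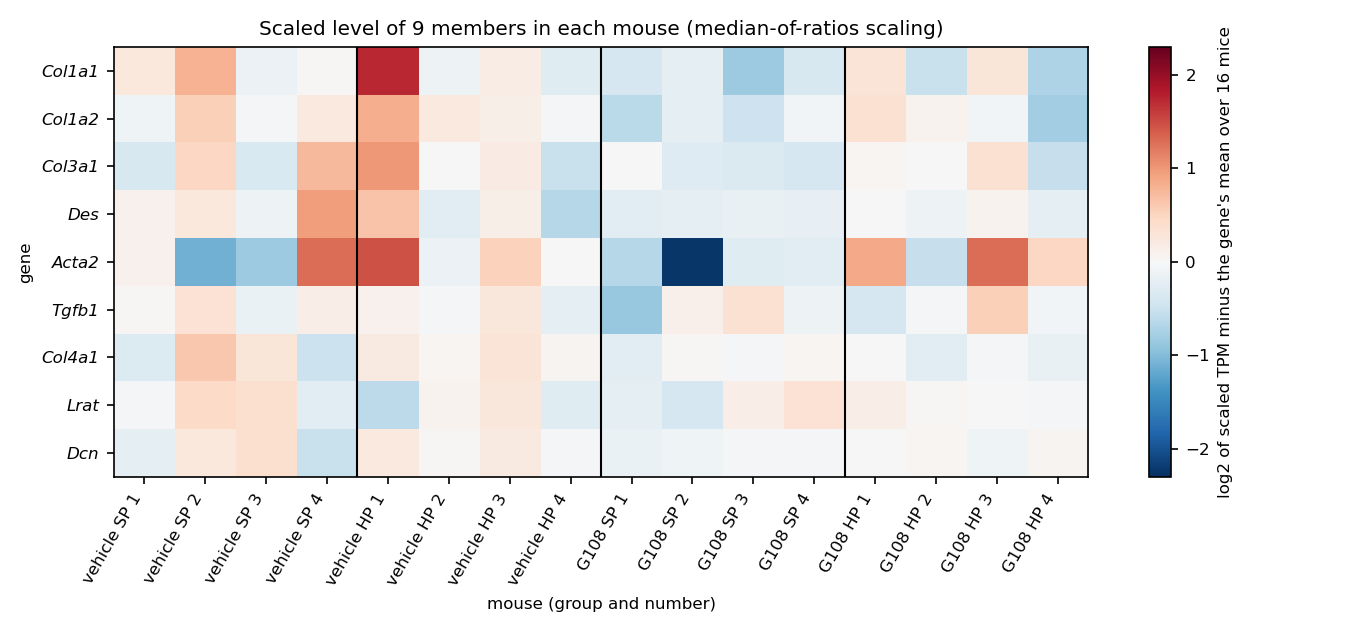
Log2 of scaled TPM minus the gene's mean over the 16 mice for 9 members (rows, without Timp1) in each mouse (columns, grouped with black lines), with red above and blue below the mean. Vehicle HP mouse 1 reached 1.74 in Col1a1, G108 SP mouse 2 was at -2.24 in Acta2, and the rows of Col4a1 and Dcn were paler than that of Acta2.

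The main comparison asked whether G108 changed these genes on the SP diet. As deposited, 2 of the 5 members tested were called higher in limma with Benjamini-Hochberg adjustment over 11839 genes: Dcn by 0.65 on the log2(TPM + 1) scale (SE 0.23, adjusted p = 0.0171) and Col4a1 by 0.36 (SE 0.16, adjusted p = 0.0463). Of all genes tested 77.0% were called higher in this comparison, so that the share among the members was below that background. Dcn stood close to the median of all genes (0.60), and the other members stood below it, with Lrat at 0.34 (SE 0.17, adjusted p = 0.0762), Tgfb1 at 0.33 (SE 0.16, adjusted p = 0.0754) and Col3a1 at 0.17 (SE 0.15, adjusted p = 0.286). After median-of-ratios scaling 0 of 5 were called, against 2.72% of all genes, and all 5 values turned below 0, from -0.21 for Col3a1 to -0.04 for Dcn. None of the 5 had an unadjusted p under 0.05 on that scale. As deposited, the Dcn call was lost without vehicle SP mouse 1 (0.53, adjusted p = 0.0608 in limma), vehicle SP mouse 4 (0.45, adjusted p = 0.0618) or G108 SP mouse 3 (0.58, adjusted p = 0.0502), and the Col4a1 call was lost in 12 of the 16 fits with 1 library left out, with values of 0.24 to 0.36.

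The 9 members with at least 10 reads were then compared on reads recovered from the TPM, with limma voom. On SP all 9 had a log2 fold change below 0, with a median of -0.40 against -0.02 over all genes, and 0 of 9 were called where 2.47% of all genes were called. None had an unadjusted p under 0.05. The lowest values were those of Col1a1 at -0.68 (SE 0.40, adjusted p = 0.375) and Acta2 at -0.68 (SE 0.62, adjusted p = 0.559), followed by Des at -0.50 (SE 0.25, adjusted p = 0.30) and Col1a2 at -0.49 (SE 0.25, adjusted p = 0.309). Dcn (-0.05, SE 0.15) and Col4a1 (-0.06, SE 0.19) were nearest to 0. None of the 9 was called with any of the 16 libraries left out. The Acta2 value ran from -0.99 without vehicle SP mouse 2 to -0.20 without vehicle SP mouse 4, and those of Col4a1, Dcn and Tgfb1 were above 0 in at least 1 of these fits, to at most 0.14, 0.08 and 0.02. Deviations of scaled values from the group means had r of -0.468 to 0.891 among the 36 member pairs, with a median of 0.249. The 9 signs were therefore not separate observations.

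**Figure D3:**
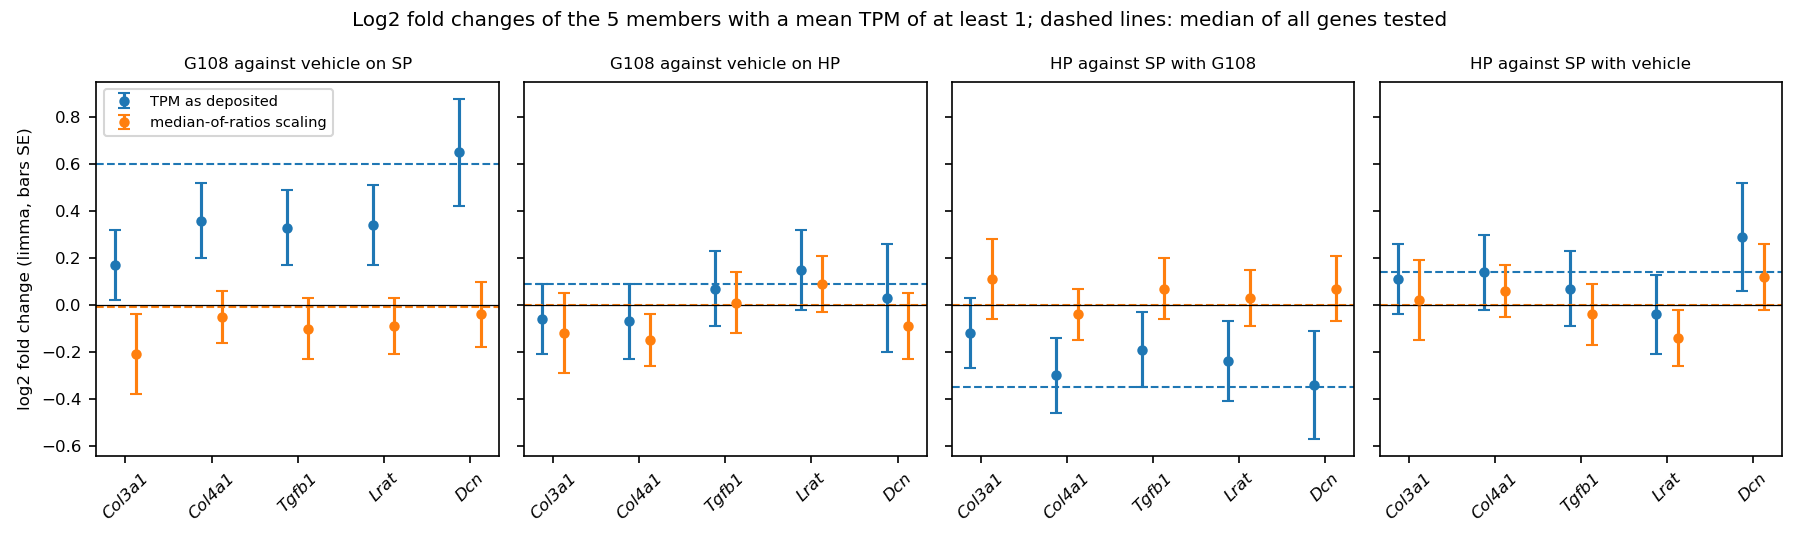
Log2 fold changes (y axis) of the 5 members with a mean of at least 1 TPM in the 4 comparisons (panels), with limma SE bars, as deposited (blue) and after median-of-ratios scaling (orange), and dashed lines for the median of all genes tested. On SP the blue points lie between 0.17 and 0.65 beside a median of 0.60, and the orange points between -0.21 and -0.04 beside a median of -0.01.

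On the HP diet no member was called for G108 against vehicle. Limma called 0 of 5 as deposited (1.11% of all genes called), 0 of 5 after scaling (1.22%) and voom 0 of 9 (1.06%), and none of the members had an unadjusted p under 0.05 in these fits. As deposited the values ran from -0.07 for Col4a1 to 0.15 for Lrat (SE 0.17, adjusted p = 0.868). In voom, Col1a1 was at -0.54 (SE 0.39) and Col1a2 at -0.40 (SE 0.24, adjusted p = 0.62), while Acta2 was at 0.10 (SE 0.49). Single libraries moved these values: Col1a1 was at -0.08 without vehicle HP mouse 1, Col1a2 ran from -0.56 without G108 HP mouse 1 to -0.16 without G108 HP mouse 4, and Acta2 ran from -0.15 without vehicle HP mouse 2 to 0.43 without vehicle HP mouse 1.

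The interaction asked whether the response to G108 differed between the diets. It was called for 0 of 5 members in limma as deposited, 0 of 5 after scaling and 0 of 9 in voom, and 0% of all genes were called in each of these fits, although 5685, 854 and 1196 genes had an unadjusted p under 0.05. As deposited the interaction of all 5 members was below 0, from -0.62 for Dcn (SE 0.32, adjusted p = 0.127) to -0.20 for Lrat, beside -0.49 for the median gene. Without vehicle SP mouse 2, Col4a1 passed as deposited at -0.58 (SE 0.19, adjusted p = 0.0454 in limma). Over all genes, the deposited interaction calls ran from 0 to 5202 with single libraries left out. In voom without that mouse Col4a1 was at -0.41 and not called. With all libraries it was at -0.09 after scaling (SE 0.16, adjusted p = 0.784 in limma).

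High protein against standard protein, among mice given G108, called 0 of 5 members as deposited, 0 of 5 after scaling and 0 of 9 in voom, with 0% of all genes called in each. Unadjusted p under 0.05 were found for 5325, 639 and 860 genes. The deposited values of the 5 members were all below 0 (median -0.24, beside -0.35 over all genes), and after scaling the median was 0.07. Acta2 had the largest value, 1.31 in voom (SE 0.57, adjusted p = 0.869), and was the only member with an unadjusted p under 0.05 there. With 1 library left out this value ran from 0.90 to 1.64. With vehicle, the diets gave 0 of 5, 0 of 5 and 0 of 9 calls, again with 0% of all genes called, and 374, 466 and 695 genes had an unadjusted p under 0.05. Here Acta2 was at 0.54 (SE 0.53) and Des at -0.33 (SE 0.25) in voom, and Dcn was at 0.29 (SE 0.23, adjusted p = 0.727) in limma as deposited. In voom, Acta2 was at 0.20 and Des at -0.55 without vehicle HP mouse 1, and they were at 1.02 and -0.10 without vehicle SP mouse 4.

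**Figure D4:**
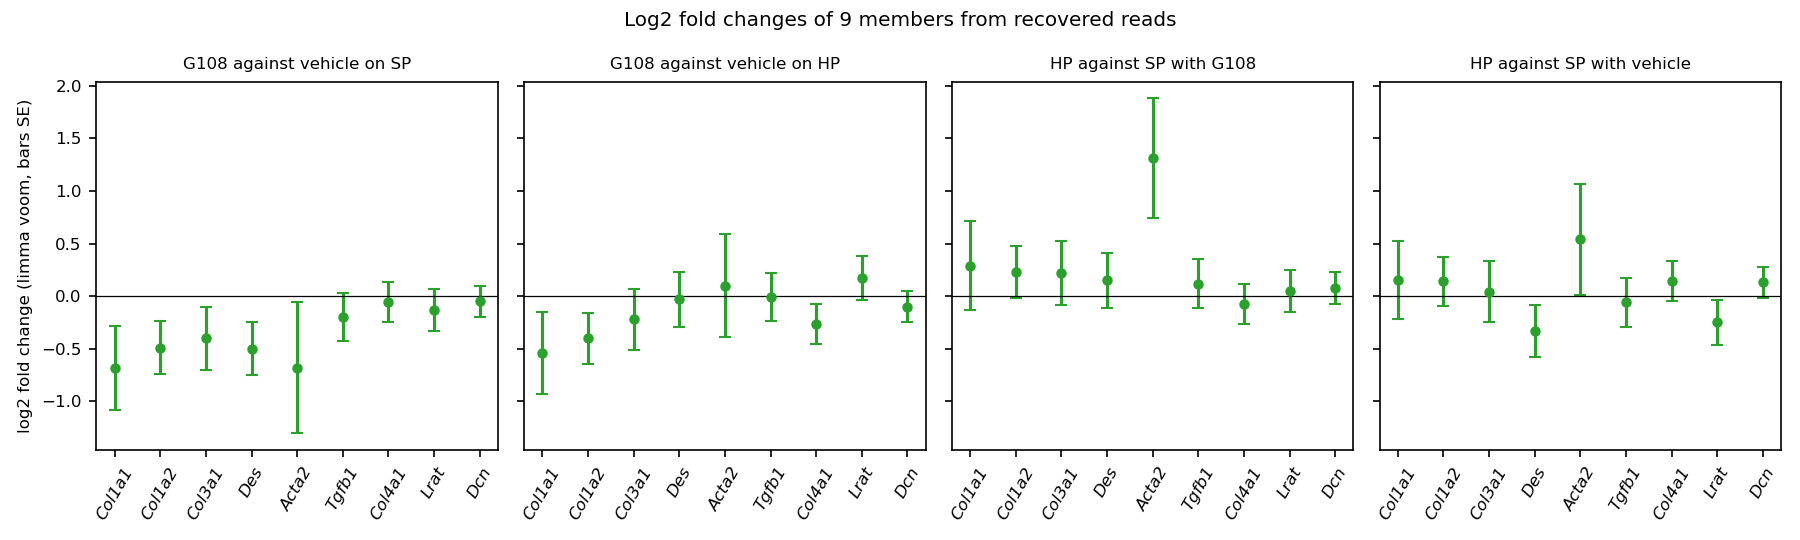
Log2 fold changes (y axis) of 9 members from recovered reads in limma voom, with SE bars, for the 4 comparisons (panels). On SP all 9 points lie between -0.68 and -0.05, and Acta2 stands at 1.31 for HP against SP with G108.

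Mice also differed within groups in a way that several members shared. Vehicle HP mouse 1 had the highest TPM of its group in Col1a1, Col1a2, Col3a1, Acta2 and Des and the lowest in Lrat. As deposited, vehicle SP mouse 2 was the highest of its group in 7 of 10 members, and vehicle HP mouse 4 was the lowest in 8. After scaling these counts were 6 and 6, and vehicle SP mouse 2 was the lowest in Acta2 on both scales. This mouse also had the highest scaling factor of its group, 0.964. The same count over all genes was not analysed here. Over the 16 libraries, the deviations of scaled log2 values from the group means had Pearson r of -0.468 to 0.891 among the 36 pairs of 9 members, with a median of 0.249. The highest were Col3a1 with Des (r = 0.891, rho = 0.80), Col4a1 with Dcn (r = 0.827, rho = 0.694), Acta2 with Des (r = 0.807, rho = 0.75) and Col1a1 with Col1a2 (r = 0.789, rho = 0.735). Acta2 and Dcn had the lowest (r = -0.468). Without vehicle HP mouse 1, chosen after its values were seen, the r of Col3a1 with Des was 0.825 and that of Col1a1 with Col1a2 0.679, but that of Col1a1 with Des fell from 0.599 to 0.187. The points of a pair share their libraries and scaling factors, and these r are given as a description.

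The genes with the deviations most like those of Col1a1, among 11839 searched over the 16 libraries, were Gsn (r = 0.921), Borcs8 (0.879), Ss18l2 (0.876), Btg2 (0.846) and Gm9385 (0.834). Gsn, the actin-severing protein gelsolin, kept r = 0.798 without vehicle HP mouse 1, whereas Btg2 was then at 0.379 and Gm9385 at 0.283. For Acta2 they were Wdr20 (r = 0.862), Zfp746 (0.861), Gm45785 (0.853), Nob1 (0.839) and Zgpat (0.835), and these lay between 0.822 and 0.908 without that mouse. Col1a2, whose r with Col1a1 was 0.789, was below the mean of 1 TPM and not among the genes searched. Both sets of genes were picked as the highest r of 11839 in these same 16 libraries. How high the top r of such a search runs by chance was not tested, so they are given as a description. Acta2 itself rested on 5 to 66 reads per library.

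The wider pathway was read from 8 lists of 85 genes. For G108 against vehicle on SP as deposited, limma called higher 1 of 4 tested other collagens, 4 of 6 collagen-processing genes, 3 of 3 proteoglycans and other matrix proteins, 2 of 4 matrix proteases and inhibitors, 4 of 6 genes of the TGF-beta pathway, 3 of 7 other stellate cell markers, 0 of 4 contractile genes and 4 of 6 genes of retinoid handling. Each share is to be read against the 77.0% of all genes called higher. The list medians lay between 0.30 and 0.57, below the 0.60 of all genes.

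Among the collagen genes Col18a1, a basement membrane collagen, was at 0.67 (adjusted p = 0.0062 in limma). P4hb, the protein disulfide isomerase that is also a subunit of collagen prolyl hydroxylase, was at 0.93, and the lysyl hydroxylases Plod3 and Plod1 were at 0.62 and 0.59. The small proteoglycan Bgn was at 0.65, the matrix glycoprotein Sparc at 0.47 and the basement membrane proteoglycan Hspg2 at 0.34. The proteases Mmp19 and Mmp14 were at 0.85 and 0.81. Of the TGF-beta signal transducers Smad3 was at 0.79, Smad4 at 0.74 and Smad2 at 0.69, and of the stellate cell markers Colec11 was at 0.81, Rgs5 at 0.79 and Ecm1 at 0.53. The retinol carrier Rbp4 was at 0.78, the thyroxine carrier Ttr, which binds Rbp4, at 0.57 and the retinol dehydrogenase Rdh10 at 0.65. After scaling and in voom none of these was called, and they had values from -0.24 to 0.56.

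Smad3, the transducer of TGF-beta signals to collagen genes, was at 1.41, 1.92, 1.52 and 1.99 TPM in vehicle SP and at 2.98, 4.01, 3.96 and 3.77 TPM in G108 SP, and at 1.69, 1.82, 1.56 and 1.36 TPM in vehicle HP and 2.05, 2.81, 2.40 and 2.84 TPM in G108 HP. As deposited G108 was higher without overlap on both diets, where 49.6% of all genes with at least 10 reads did not overlap on SP and 8.55% on HP. After scaling the groups overlapped on both diets, with vehicle SP up to 2.93 and G108 SP from 2.54, and vehicle HP up to 2.03 and G108 HP from 2.00. On HP the value was 0.43 (SE 0.12, adjusted p = 0.104 in limma), and after scaling the Smad3 value was 0.23 (SE 0.12, adjusted p = 0.318) on SP and 0.35 (SE 0.12, adjusted p = 0.207) on HP.

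Tpm2, a tropomyosin of contractile filaments, was the 1 gene of the 8 lists called lower with G108 on SP. The other contractile genes tested went the other way as deposited, with Tagln at 0.27, Myl9 at 0.37 and Tpm1 at 0.33, none called in limma. Tpm2 was at 1.15, 3.34, 2.12 and 2.92 TPM in vehicle SP, at 1.60, 1.21, 1.36 and 1.30 TPM in G108 SP, at 1.90, 1.83, 2.42 and 2.15 TPM in vehicle HP and at 1.51, 0.970, 1.29 and 2.05 TPM in G108 HP. As deposited the SP groups overlapped through vehicle SP mouse 1, and after scaling they did not, with G108 SP at 0.884 to 1.36 and vehicle SP at 1.66 to 4.28. Of all genes with at least 10 reads, 8.80% did not overlap on SP after scaling. The log2 fold change on SP was -0.47 as deposited (SE 0.18, adjusted p = 0.0305 in limma), -0.93 after scaling (SE 0.18, adjusted p = 0.0105) and -1.49 in voom (SE 0.28, adjusted p = 0.0075). It was the one gene of the lists called after scaling, 1 of 40 tested (2.50%) where 2.72% of all genes were called, and in voom, 1 of 75 (1.33%) where 2.47% were. The lists were thus called no more often than all genes, and Tpm2 is shown for its own values. As deposited the call was lost without vehicle SP mouse 2 (-0.33, adjusted p = 0.106 in limma), vehicle SP mouse 4 (-0.38) or G108 SP mouse 2, 3 or 4 (-0.43, -0.47 and -0.46). It was also lost without a filter on low values (adjusted p = 0.0724) and with only the SP groups in the fit (adjusted p = 0.0626). On HP the Tpm2 value was -0.34 as deposited (SE 0.18, adjusted p = 0.52 in limma), -0.43 after scaling (SE 0.18, adjusted p = 0.341) and -0.65 in voom (SE 0.27, adjusted p = 0.371). The scaled groups did not overlap there either, with G108 HP at 1.03 to 1.66 and vehicle HP at 1.71 to 2.65. The share of all genes with at least 10 reads that did not overlap there was 7.67%. The interaction of Tpm2 depended on the scale, at 0.13 as deposited (SE 0.26, adjusted p = 0.685 in limma), 0.50 after scaling (SE 0.25, unadjusted p = 0.0659, adjusted p = 0.575) and 0.84 in voom (SE 0.39, unadjusted p = 0.0463, adjusted p = 0.591). No gene of the 8 lists was called in limma as deposited, after scaling or in voom for G108 on HP, for the diets or for the interaction.

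**Figure D5:**
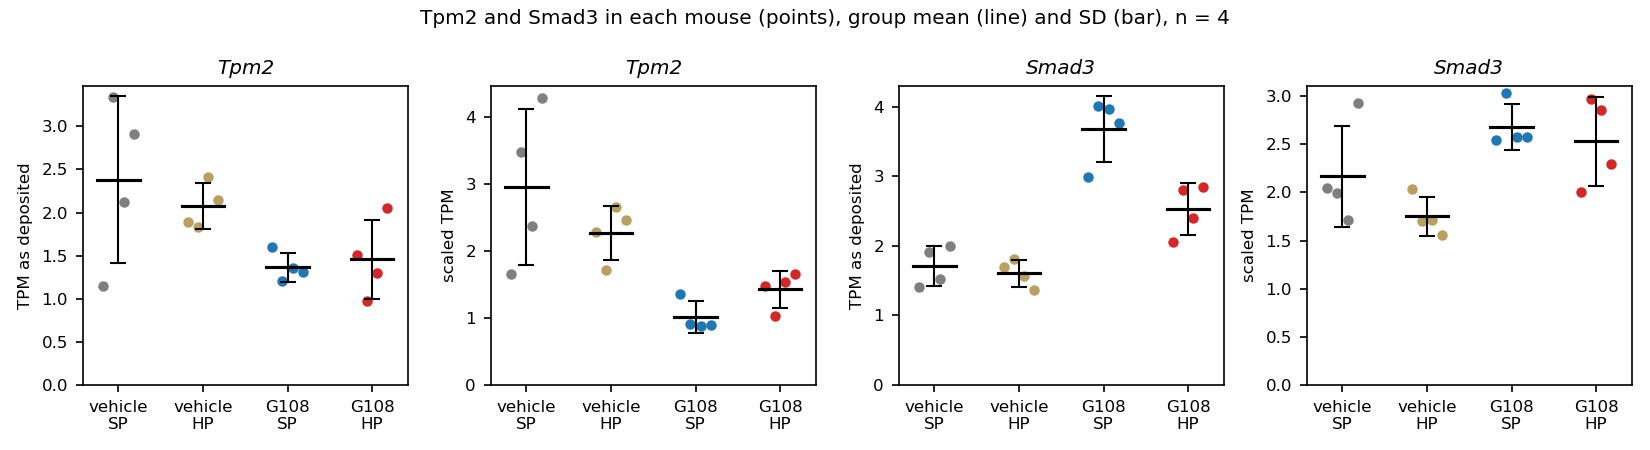
Tpm2 and Smad3 in each mouse (points) with group mean and SD (n = 4), as deposited and after median-of-ratios scaling (y axes, from 0). For Tpm2 the scaled G108 SP mice lie at 0.884 to 1.36, below the vehicle SP mice, and for Smad3 the deposited G108 SP mice lie at 2.98 to 4.01, above them, whereas its scaled groups overlap.

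Markers of other liver cells were measured beside these genes. On SP the summed TPM of the stellate cell markers was 39.3 to 74.3 with vehicle and 67.3 to 96.9 with G108, and after scaling 56.8 to 77.1 and 57.4 to 65.8. Ecm1 was the largest part of that sum, with a mean of 39.7 TPM over the 16 mice, beside 1.29 for Lrat and 0.873 for Des. The 10 endothelial markers were at 30.2 to 50.8 with vehicle and 43.2 to 60.6 with G108 on SP, and after scaling at 42.8 to 58.6 and 35.4 to 39.4. The 8 Kupffer cell and macrophage markers spanned 37.8 to 142 TPM in G108 SP and 41.5 to 67.1 in vehicle SP. The 5 markers of portal fibroblasts and mesothelium summed to at most 1.13 TPM and the 3 adipocyte markers to at most 0.244, with Lep at 0 in all libraries. Whether these sums had a part in the members' values was not tested.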

How the data were processed

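Liver RNA of 16 mice was measured in 1 library each. The authors aligned reads to GRCm38 with HISAT2 (2.0.5 in the submitters' processing notes), used featureCounts to count reads per gene, and deposited TPM computed from these counts and exon lengths. All 16 value columns were used, and groups came from the sample records. Symbols, positions and exon lengths came from GENCODE M21, with a symbol for 55141 and a length for 55227 of 55487 identifiers. No library was a copy of another (0% identical values).

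The 10 members and all lists were chosen with earlier results of these data known. Named genes were the members, up to 3 genes called per list by size of change, and the 5 genes most like each of Col1a1 and Acta2. Genes averaging 1 TPM or more were fitted on log2(TPM + 1) in limma 3.58.1 (R 4.3.3), all 16 libraries in 1 model with a mean per group and an intensity trend, with Benjamini-Hochberg adjustment over the genes tested and calls under 0.05. Median-of-ratios factors came from 11591 genes. Reads were recovered from the steps of low TPM values, 98.7% of 137362 of which lay within 0.02 of a whole read, and fitted with voom. The filter for the 9-member voom fit (at least 10 reads) was chosen after the data were seen. P-values set the difference between group means against the spread between mice. The limma fit and the read recovery were tested on simulated data, which for the limma fit held no difference in composition between libraries. Alternatives were a pseudocount of 0.1, no filter, a mean TPM of at least 5, scaling, the mouse number as a block, fits without the groups not compared, voom, and each library left out.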

Additional observations from a re-analysis of the deposited data

Results flagged for a closer look

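Over the 10 members and 4 groups, 3 of 40 sets of 4 mice held a mouse far from the other 3, where chance gives about 1 in 20 sets (2 of 40). Col1a1 was at 0.619 TPM in vehicle SP mouse 2 (104 reads), with the other 3 mice at 0.255 to 0.299, a gap of 0.878 of the group's range. After median-of-ratios scaling that gap was 0.681 of the range and no longer past Dixon's critical value. Col1a1 was at 1.02 TPM in vehicle HP mouse 1 (223 reads), with the other 3 mice at 0.264 to 0.378, and here the gap was 0.850 of the range as deposited and 0.879 after scaling. Timp1 was at 0.0799 TPM in G108 HP mouse 1, which stands for 2 reads, with the other 3 mice listed at 0.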

How the results depend on the processing

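For G108 against vehicle on SP, 2 members were called as deposited and 1 without a filter or with only the groups compared. With a mean TPM of at least 5 it was also 1, Dcn, the only member tested there. The count was 0 with median-of-ratios scaling (with or without the filter) and in both voom fits. With single libraries left out the count ran from 0 (without vehicle SP mouse 1, vehicle SP mouse 4 or G108 SP mouse 3) to 4 (without vehicle SP mouse 2 or G108 SP mouse 1). Over all genes the calls in these fits ran from 7854 without vehicle SP mouse 1 to 9348 without vehicle SP mouse 2. For the interaction the member count ran from 0 to 1, and in the other comparisons no setting tried called a member. Col4a1 had an adjusted p of 0.101 without a filter and 0.112 with only the groups compared (limma). The causes were not tested. Deviations of same-numbered mice had r over 0.1 in 8 of 24 pairs (range -0.567 to 0.529). They were not set against those of differently numbered mice, so whether the numbers mark a pairing was not tested. With the replicate block the SP count was 2, Dcn and, in place of Col4a1 (adjusted p = 0.0537 in limma), Tgfb1 (adjusted p = 0.0486).

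Over all genes, the SP comparison had 9185 calls as deposited, 322 after scaling, 350 in voom, 404 in voom with at least 10 reads, 233 scaled without a filter and 4479 with a mean TPM of at least 5. The HP comparison had 132, with 37 without a filter, 43 without a filter and scaled, 84 with only its groups, 71 with the replicate block, and 0 to 209 with libraries left out. HP against SP with G108 went from 0 to 5047 calls without G108 HP mouse 4, and the interaction from 0 to 5202.

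With libraries left out, the log2 fold change ran from -0.18 to 0.06 for Col3a1 and -0.08 to 0.13 for Dcn with G108 on HP, from -0.01 to 0.23 for Col3a1 and -0.14 to 0.06 for Lrat with the diets under vehicle, and from -0.67 to -0.33 for Tpm2 with G108 on SP. With median-of-ratios scaling the log2 fold change for G108 on SP was -0.21 for Col3a1, -0.05 for Col4a1, -0.10 for Tgfb1, -0.09 for Lrat and -0.04 for Dcn, and in voom with a mean of at least 1 TPM -0.40, -0.05, -0.20, -0.13 and -0.05. For members under a mean of 1 TPM, scaled without a filter, it was -0.18 for Col1a1, -0.14 for Col1a2, -0.19 for Acta2 and -0.25 for Des, and in voom with at least 10 reads -0.68, -0.49, -0.68 and -0.50. The voom values that follow are from the latter fit for these 4 genes and from the former for the others. On HP, Dcn turned to -0.09 scaled and -0.10 in voom, Tgfb1 to -0.02 in voom and Des to -0.03 in both. For HP against SP with G108, scaling gave 0.11 for Col3a1, 0.07 for Tgfb1, 0.03 for Lrat, 0.07 for Dcn, 0.08 for Col1a1, 0.07 for Col1a2 and 0.07 for Des, and voom 0.22, 0.12, 0.05, 0.08, 0.29, 0.23 and 0.15. With vehicle, Tgfb1 turned to -0.04 and -0.06. The interaction turned to 0.09 and 0.18 for Col3a1, 0.11 and 0.18 for Tgfb1, 0.17 and 0.30 for Lrat, 0.02 and 0.09 for Col1a2, 0.22 and 0.47 for Des and, in voom, 0.14 for Col1a1. On SP the other genes that turned were Col18a1 (-0.10 in both), Plod3 (-0.05 in both), Plod1 (-0.07 and -0.08), Bgn (-0.02 in both), Sparc (-0.18 and -0.21), Hspg2 (-0.12 and -0.19), Ecm1 (-0.23 and -0.24) and Ttr (-0.21 in both).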
